A study of Homo sapiens with 12 samples.

Results

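Gene expression with 1 hairpin against p53, called p53 shRNA 1 in the labels, was compared with that in vector control cells. The comparison uses 4 of the 12 libraries of the series: the 2 libraries labelled p53 shRNA 1 and the 2 labelled vector. All 4 are bulk RNA libraries of LMSU, a human gastric cancer cell line whose p53 gene carries the R175H variant per the labels, grown in Ham's F-10 medium. All 4 are also labelled as given doxycycline, so no library in the comparison was without the drug. The labels mark R175H as present in the vector libraries and as absent in the shRNA 1 libraries. The sources used here do not say what the vector carries, what doxycycline does in these cells or how long treatment lasted. The statistical model was fitted to the 8 libraries of the knockdown arm, which adds 2 libraries with a scramble hairpin and 2 with another hairpin against p53, shRNA 2, all with doxycycline.

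The p53 protein is a transcription factor that, in its normal form, switches on genes of cell cycle arrest, DNA repair and apoptosis. R175H is a frequent substitution in tumours that disturbs the fold of the DNA-binding part, and the mutant protein has largely lost the ability to activate the usual p53 target genes. A short hairpin RNA is processed by the cell's RNA interference machinery into a small RNA that directs the degradation of a matching messenger RNA.

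The 2 vector libraries held 13836692 and 16823246 counts and the 2 shRNA 1 libraries 11500899 and 9738094. Between 15457 and 15979 genes had at least 1 count in each of the 8 libraries of the arm. The biological coefficient of variation, the spread between libraries of a group beyond counting error, was 3.08% in the knockdown arm. Libraries of 1 group differed from each other beyond sampling noise in all 4 groups. Whether they come from separate cultures is not stated, so the p-values measure a spread between libraries that may be technical. Values are CPM, counts scaled to the library total after TMM, a correction for differences in library composition, and differences are log2 fold changes of shRNA 1 over vector from edgeR. A gene was called when its Benjamini-Hochberg adjusted p in edgeR's two-sided quasi-likelihood test was below 0.05.

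Markers were checked against the label of the line. Of 14 gastric lineage genes, 13 were among the deposited symbols, MUC5AC being absent. GATA6 alone was measured well enough to be tested, at 21.6 to 38.3 CPM over the 8 libraries. TFF1 and GATA4 had 0 counts in all 8 libraries. The epithelial genes CDH1 and EPCAM had 8 and 3 counts in all, whereas the keratins KRT8 and KRT18 lay at 163 to 197 CPM and 187 to 270 CPM. The mesenchymal gene VIM lay between 12800 and 15650 CPM and the fibroblast gene COL1A1 between 4746 and 6395 CPM. The fibroblast list had 13 of 16 genes tested, and FBLN1, MFAP5 and PDPN had 4, 10 and 0 counts in all. Of 9 intestinal genes, 0 were tested, VIL1 being at 0 counts, and of 8 endothelial genes 1, PECAM1, at 0.295 to 1.15 CPM, CDH5 being at 0 counts. Of 12 immune genes, 2 were tested: CD68, a lysosomal glycoprotein gene, at 364 to 431 CPM, and LAPTM5, another gene of lysosomes, at 6.45 and 8.74 CPM with shRNA 1 (0.08 against vector). CD68 was slightly lower with shRNA 1 (-0.12, SE 0.043, adjusted p 0.0235), a call lost without any one of the 4 compared libraries (adjusted p 0.0706 to 0.16) and in a fit to all 12 libraries (0.57), and LAPTM5 and PECAM1 were not called. PTPRC, the pan-leukocyte marker, had 15 counts and CD3E 0. Counts of VIM and COL1A1 were thus high, and those of most gastric genes at or near 0, in vector and shRNA 1 alike.

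CDKN1A, the gene of p21, an inhibitor of cyclin-dependent kinases, stood at 66.9 and 65.3 CPM in vector and 80.3 and 85.6 CPM with shRNA 1. Both shRNA 1 libraries were above both vector libraries, as in 34% of all genes. The change was 0.33, SE 0.061, adjusted p 2.21e-05. The call was lost in a fit to all 12 libraries (adjusted p 0.0875). In scramble CDKN1A was at 109.9 and 113 CPM and with shRNA 2 at 184 and 198 CPM, so shRNA 1 stood between the controls: it was lower than scramble (-0.43, adjusted p 6.5e-08). MDM2, a classical p53 target gene, encodes the ubiquitin ligase that degrades p53. It was at 39.2 and 39.4 CPM in vector and 38.3 and 37.8 CPM with shRNA 1. The change was -0.05 on the log2 scale and was not called (adjusted p 0.675). For MDM2 too the libraries did not overlap, with both shRNA 1 libraries below both vector libraries, as in 35% of all genes. DCN, the gene of the small matrix proteoglycan decorin, was at 63.4 and 59.7 CPM in vector and 273 and 266 CPM with shRNA 1, a change of 2.14, SE 0.052, adjusted p 2.86e-33. Scramble, at 289.8 and 280.4 CPM, did not pass the test against shRNA 1 (-0.08 for shRNA 1 over scramble, adjusted p 0.191), and shRNA 2 was higher still at 513 and 534 CPM.

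**Figure D1:**
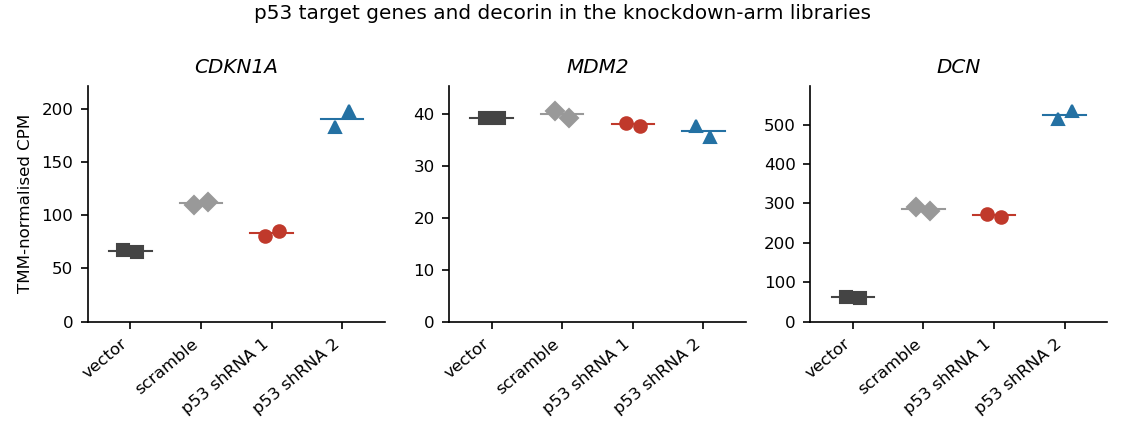
Levels of CDKN1A, MDM2 and DCN in TMM-normalised CPM (vertical axes, from 0) in the 8 libraries of the knockdown arm. Points are libraries and short lines are group means of 2. The MDM2 points of all 4 groups lie close together, and the DCN points of scramble lie near those of shRNA 1, far above vector.

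Of 12980 genes tested, 5283 were called, which is 40.7% of all. Of these, 2466 (19%) rose and 2817 (21.7%) fell. The median log2 fold change over all genes tested was 2e-04. Most called changes were small: 76.94% of them were under 1.5-fold. Both shRNA 1 libraries lay above both vector libraries in 34% of all genes and below both in 35%. At least 2-fold changes were called in 356 genes, 206 higher and 150 lower, and at least 4-fold changes in 32, 19 higher and 13 lower. These are bulk libraries, in which fewer cells of a type and less RNA per cell cannot be told apart. The other control differed from vector about as widely. Scramble against vector gave 42.1% called (19.9% higher, 22.2% lower), shRNA 1 against scramble 33.2% (16.2% and 16.9%), and shRNA 2 against vector 46.7% (22.7% and 24.1%). Against shRNA 2, shRNA 1 gave 38.8% (18.7% and 20.1%). These comparisons share libraries, so their values are set side by side here and no overlap is drawn from them. The test of shRNA 1 against scramble is at the same time the test of whether the shRNA 1 and the scramble effects against vector differ. Counts of list members called against scramble are to be read beside the 33.2% of all genes (16.2% higher, 16.9% lower).

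**Figure D2:**
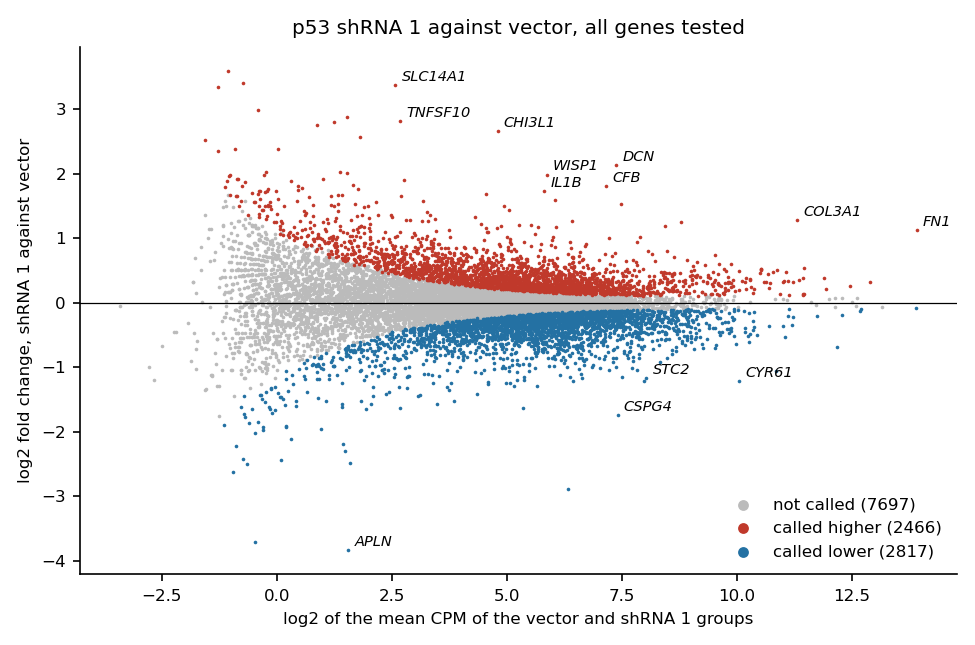
Log2 fold change of shRNA 1 over vector (vertical axis) against the log2 of the mean CPM of the 2 groups (horizontal axis), 1 point per tested gene. Red points are the 2466 genes called higher, blue points the 2817 called lower and grey points the rest. The cloud is balanced about 0, and APLN and SLC14A1 are among the labelled genes far from it.

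The increases are given first for the 14 named genes with the largest changes. SLC14A1, a urea transporter gene, had the largest change of the 14, from 1.44 and 0.709 CPM to 10.9 and 10.8 CPM (3.37, SE 0.23, adjusted p 8.12e-17). DMBT1, which encodes a secreted scavenger receptor glycoprotein, went from 0.577 and 0.768 CPM to 4.38 and 5.79 CPM (2.87, SE 0.32, adjusted p 3.2e-10). TNFSF10, the gene of the death ligand TRAIL, went from 1.59 and 1.59 CPM to 12.3 and 9.96 CPM (2.81, SE 0.21, adjusted p 2.37e-15). SLC14A1 and DMBT1 rest on few counts, with 32 and 21 in the 2 vector libraries together. In none of these genes did the vector and the shRNA 1 libraries overlap, as the naming rule requires. CHI3L1, a chitinase-like secreted glycoprotein gene, rose from 8.22 and 7.03 CPM to 43.8 and 51.9 CPM (2.65, SE 0.11, adjusted p 4.27e-25). WISP1, a matricellular protein gene of the CCN family, rose from 22.6 and 24.4 CPM to 92.97 and 93.4 CPM (1.98, SE 0.071, adjusted p 5.85e-27). The remaining increases were RTL1, an imprinted gene derived from a retrotransposon whose locus also makes an antisense transcript (2.57, with 31 counts in vector), the chondroitin sulfate enzyme gene CSGALNACT1 (1.91), BMPER, which encodes a BMP-binding protein (1.76), DPT, the gene of dermatopontin (1.68), and SERPINF1, the gene of pigment epithelium-derived factor (1.64). DCN, CFB, IL1B and MMP13 complete the 14 and are described with their groups.

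These increases fall into groups by their level in scramble. WISP1 was at 45.8 and 44.95 CPM in scramble and 34.1 and 35.1 CPM with shRNA 2, between vector and shRNA 1, and was higher with shRNA 1 than in either (1.04 and 1.43, adjusted p 1.13e-17 and 5.17e-22). TNFSF10 (1.45), DMBT1 (1.60), RTL1 (1.28), SERPINF1 (0.98), DPT (0.61), SLC14A1 (0.41) and CFB (0.40) were also called higher than in scramble, which makes 8 of the 14. Over all genes, 16.2% were called higher than in scramble. The 14 were picked on the same shRNA 1 libraries, so the count is a description and not independent support. For CHI3L1 (0.19), DCN (-0.08), CSGALNACT1 (-0.25), BMPER (0.51) and MMP13 (0.12) the difference from scramble was not called. IL1B was lower than in scramble (-1.07, adjusted p 1.49e-20).

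APLN, which encodes the secreted peptide apelin, had the largest decrease, from 5.84 and 5.08 CPM to 0.258 and 0.508 CPM (-3.83, SE 0.38, adjusted p 1.27e-11). These are 3 and 5 counts in the shRNA 1 libraries. APLN was also low in scramble, at 0.844 and 0.855 CPM, where the difference from shRNA 1 was not called (-1.17, adjusted p 0.117). CSPG4, the gene of the membrane proteoglycan NG2, went from 255 and 266 CPM to 72.95 and 83.6 CPM (-1.74, SE 0.056, adjusted p 8.35e-29). Its scramble libraries, at 147 and 144 CPM, lay between vector and shRNA 1, and shRNA 1 was lower than scramble (-0.90, adjusted p 3.91e-17). IL7R, the interleukin 7 receptor gene, went from 59.6 and 63.5 CPM to 20.9 and 18.7 CPM (-1.63, SE 0.083, adjusted p 5.75e-21), and stood at 25.1 and 25.7 CPM in scramble. The other decreases included FAM166A (-2.49, with 19 counts in the shRNA 1 libraries), the claudin gene CLDN11 (-1.64), the matrix protein gene PRELP (-1.63), FAM46B (-1.56), RGS4, a regulator of G protein signalling (-1.56), the tetraspanin gene TSPAN10 (-1.53, with 39), ARTN, a ligand of the GDNF family (-1.52), CDK5R1, which encodes an activator of the kinase CDK5 (-1.44), and ZNF114 (-1.44). Of the 14 decreases, picked on the same shRNA 1 libraries, 7 were also called lower than scramble, beside 16.9% of all genes. Another 5 were not called against it, APLN, FAM46B, TSPAN10, CDK5R1 and ZNF114. PRELP (1.08) and ARTN (0.77) were higher than in scramble, which was the lower of the 2 controls for both.

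**Figure D3:**
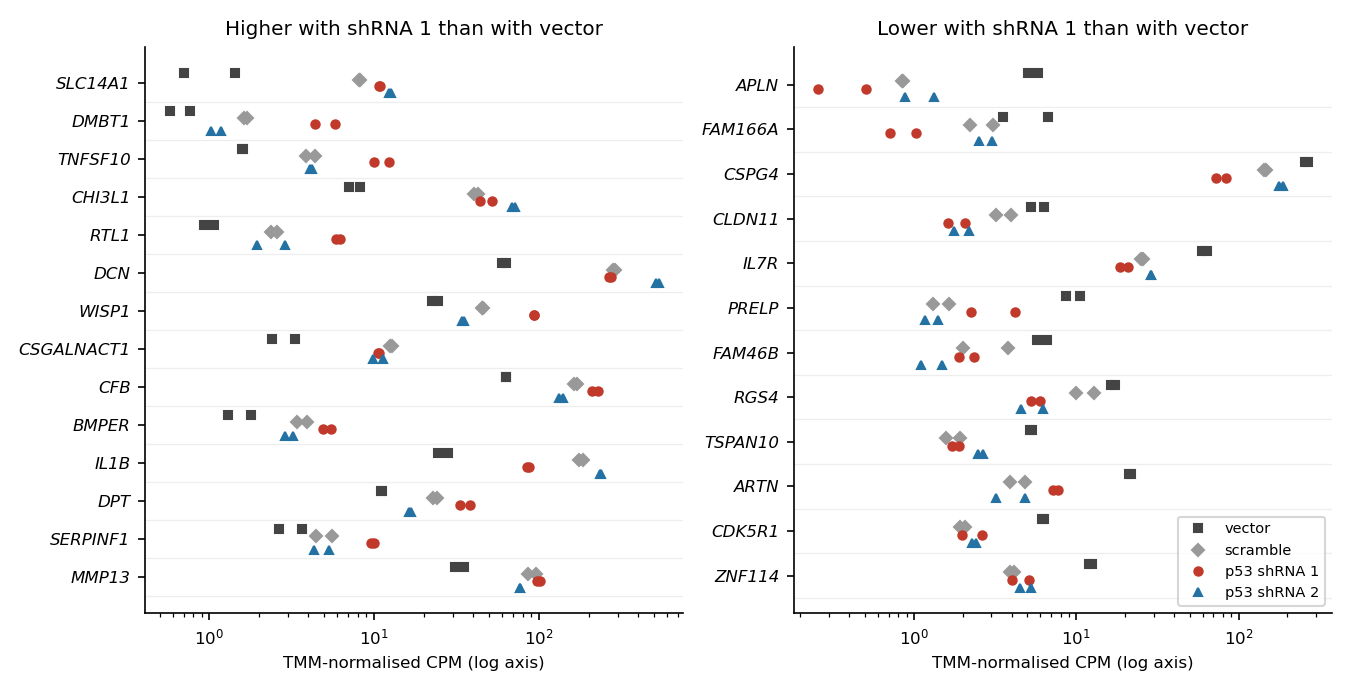
TMM-normalised CPM (log axis) of the 14 genes with the largest increases (left) and 12 of those with the largest decreases (right) of shRNA 1 against vector, 1 point per library. The scramble libraries (grey diamonds) lie near shRNA 1 for DCN, CHI3L1 and CSGALNACT1 and between the 2 groups for WISP1 and CSPG4.

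Of 30 textbook p53 target genes tested, 10 rose and 5 fell, with a median of 0.14. The share called was 50%, against 40.7% of all genes. ZMAT3, an RNA-binding protein gene, rose from 21.98 and 18.1 CPM to 37.6 and 36.7 CPM (0.90, SE 0.1, adjusted p 8.95e-10). C12orf5, the gene of the metabolic phosphatase TIGAR, rose from 1.30 and 1.48 CPM to 5.24 and 4.57 CPM (1.81, SE 0.27, adjusted p 3.78e-07). GDF15, a stress-induced cytokine of the TGF-beta family (0.75), and TNFRSF10B, a TRAIL receptor gene (0.32), rose as well. The 5 that fell were PLK2, a kinase gene that went from 424 and 424 CPM to 225 and 220.3 CPM (-0.93, SE 0.045, adjusted p 6.5e-22), the DNA repair gene DDB2 (-0.43), STEAP3 (-0.16), BBC3, which encodes the proapoptotic protein PUMA (-0.29), and FDXR (-0.39). STEAP3 lost its call without replicate 1 of vector, replicate 2 of vector or replicate 1 of shRNA 1 (adjusted p 0.0527 to 0.0762). For PLK2 and C12orf5 the difference between shRNA 1 and scramble was not called (-0.0031 and 0.20), and GDF15 was lower with shRNA 1 than in scramble (-0.95). As a list against scramble, 9 of 30 were higher and 4 lower (CDKN1A, BBC3, GDF15 and PLK3), with a median of 0.016. The share called there was 43.3%, against 33.2% of all genes. Scramble against vector gave 9 higher, 8 lower and a median of 0.095. DDB2 (adjusted p 0.0512) and STEAP3 (0.262) did not pass in the fit to all 12 libraries.

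Cytokine and chemokine genes made the list with the highest median, 0.96. Of 20 tested, 13 rose, and 1, the interleukin gene IL18, fell (-0.41), so that 70% were called, against 40.7% of all genes. IL1B, the gene of interleukin 1 beta, stood at 28.04 and 24.3 CPM in vector and 87.6 and 84.2 CPM with shRNA 1 (1.72, SE 0.07, adjusted p 9.67e-25). CXCL8, the neutrophil chemokine interleukin 8, went from 41.4 and 43.5 CPM to 87.7 and 83.4 CPM (1.01, SE 0.062, adjusted p 3.63e-18), CXCL5 from 30.1 and 32.5 CPM to 71.1 and 69.7 CPM (1.16), and IL11, a cytokine of the interleukin 6 family, from 21.98 and 24.2 CPM to 50.96 and 56.00 CPM (1.2022). For all 4 of these genes, picked by adjusted p, both shRNA 1 libraries were above both vector libraries, as in 34% of all genes. The scramble libraries were higher again for IL1B and CXCL8: IL1B was at 186 and 175 CPM and CXCL8 at 173 and 175 CPM. Against scramble 12 of the 20 were lower with shRNA 1 and 1, TNFSF10, was higher, with a median of -0.39. The scramble list median over vector was 1.31. IL18 lost its call without replicate 1 of vector or replicate 1 of shRNA 1 (adjusted p 0.0602 to 0.0945).

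Targets and feedback regulators of NF-kB, the transcription factor of inflammatory signalling, had 10 of 24 higher and 2 lower (50% called, against 40.7% of all genes), with a median of 0.16. SOD2, the mitochondrial superoxide dismutase gene, rose from 199 and 194 CPM to 345 and 335 CPM (0.79, SE 0.044, adjusted p 1.5e-19). BIRC3, an inhibitor of apoptosis that acts in the TNF receptor complex, rose from 673 and 696 CPM to 998 and 979 CPM (0.53, SE 0.041, adjusted p 8e-15). TNFAIP3 (0.69), whose product A20 dampens the pathway, TNFAIP2 (0.62) and NFKBIZ (0.69) also rose. The 2 that fell were CD83 (-0.60) and PLAU, the urokinase gene (-0.14). Scramble was at 651 and 672 CPM for SOD2 and at 1475 and 1575 CPM for BIRC3, above shRNA 1 for both. With shRNA 1, 18 of 24 members were lower than in scramble and 0 higher (median -0.43), whereas scramble itself had 22 of 24 above vector (median 0.67). For TNFAIP2 the difference from scramble was not called (-0.06, adjusted p 0.49). PLAU lost its call without replicate 1 of vector, replicate 2 of vector or replicate 1 of shRNA 1 (adjusted p 0.102 to 0.291). BIRC3 (adjusted p 0.0635) and PLAU (0.491) lost the call in the fit to all 12 libraries. PLAU (adjusted p 0.112) did not pass under DESeq2.

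Complement and coagulation genes had a median of 0.47, with 12 of 18 higher and 3 lower, 83.3% called against 40.7% of all genes. CFB, which encodes complement factor B of the alternative pathway, was at 63.1 and 63.4 CPM in vector and 229.6 and 211 CPM with shRNA 1 (1.80, SE 0.055, adjusted p 1.1e-29). The classical protease gene C1S went from 44.7 and 38.6 CPM to 95.98 and 90.2 CPM (1.17) and C3, the central component, from 13.1 and 12.8 CPM to 27.1 and 33.7 CPM (1.22). TFPI2 (0.97) and TFPI (0.52), inhibitors of tissue-factor coagulation, rose as well. CD55 (-0.31), CD59 (-0.11), both complement inhibitors on the cell surface, and CLU (-0.62) fell. Against scramble 6 were higher, CFB and TFPI among them, and 6 lower, C3 and TFPI2 among them. CD59 lost its call without replicate 1 of vector, replicate 2 of vector, replicate 1 of shRNA 1, replicate 2 of shRNA 1, replicate 1 of shRNA 2 or replicate 2 of shRNA 2 (adjusted p 0.0501 to 0.17). Interferon-stimulated genes gave 8 higher and 6 lower of 37, a called share of 37.8% and so near the 40.7% of all genes, with a median of 0.074. Among them IFI44L rose from 10.7 and 11.99 CPM to 30.6 and 26.3 CPM (1.32). Among 20 genes of MHC class I antigen presentation, 7 rose and 3 fell (50% called), and the median was -0.0094, or 0.0297 without replicate 1 of vector and 0.062 without replicate 2 of shRNA 1. B2M, the gene of the shared light chain, went from 1431 and 1410 CPM to 1802 and 1729 CPM (0.31), whereas the peptide-trimming enzyme gene ERAP2 fell from 118 and 119.7 CPM to 76.6 and 73.3 CPM (-0.66), and CALR (-0.14) and TAP2 (-0.17) fell slightly. The class I heavy chain genes resemble each other, so their reads may be split between them. TAP2 lost its call without replicate 1 of vector, replicate 1 of shRNA 1 or replicate 2 of shRNA 1 (adjusted p 0.0974 to 0.332), and CALR lost its call without replicate 2 of shRNA 1 (adjusted p 0.105). CALR (adjusted p 0.495), CD59 (0.459) and TAP2 (0.211) did not pass in the fit to all 12 libraries. TAP2 (adjusted p 0.123) did not pass under DESeq2. CD59 (adjusted p 0.0517) did not pass with the replicate number as a block.

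All 39 tested genes of the G2/M and mitosis list fell, against 21.7% of all genes, with a median of -0.67 and a range from -1.15 to -0.22. PRC1, which bundles microtubules of the spindle midzone, went from 153 and 153 CPM to 76.8 and 76.5 CPM (-0.9960, SE 0.054, adjusted p 5.84e-20). PLK1, a mitotic kinase gene, went from 157 and 152 CPM to 78.4 and 80.9 CPM (-0.96, SE 0.055, adjusted p 2.87e-19). BIRC5, the gene of survivin, went from 178 and 172 CPM to 83.6 and 89.6 CPM (-1.01, SE 0.06, adjusted p 1.02e-18), and CDC20, an activator of the anaphase-promoting complex, from 292 and 301 CPM to 165 and 179 CPM (-0.79, SE 0.048, adjusted p 3.54e-18). UBE2S, which encodes a ubiquitin-conjugating enzyme that works with that complex, fell too (-0.88). In each of these 5 genes, picked by adjusted p, both shRNA 1 libraries lay below both vector libraries, as in 35% of all genes. Scramble was also below vector: PRC1 was at 91.1 and 90.1 CPM and PLK1 at 91.8 and 87.1 CPM there, and all 39 members were called lower in scramble than in vector (median -0.71). Between shRNA 1 and scramble the list had 8 higher, 7 lower and a median of 0.018. That is 38.5% called, near the 33.2% of all genes in the same comparison. PRC1 (-0.24), PLK1 (-0.17) and UBE2S (-0.50) were lower with shRNA 1 than in scramble, and BIRC5 was higher (0.30). With shRNA 2 all 39 were lower than in vector as well, with a median of -1.01.

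Promoters of many mitotic genes carry a cell cycle homology region, with the core TTTGAA, through which the genes are repressed outside of G2 and mitosis. The 3 promoters below belong to called members that hold this core, and show where it lies in genes that fell together. They were taken by smallest adjusted p from part of the list only, because some listed genes were left out before the choice. They are the 250 bases before the start of the gene in RefSeq's GRCh38.p14 annotation, written on the gene's own strand, with the core in capitals on either strand.
PRC1 (chr15:90994536-90994785, minus strand): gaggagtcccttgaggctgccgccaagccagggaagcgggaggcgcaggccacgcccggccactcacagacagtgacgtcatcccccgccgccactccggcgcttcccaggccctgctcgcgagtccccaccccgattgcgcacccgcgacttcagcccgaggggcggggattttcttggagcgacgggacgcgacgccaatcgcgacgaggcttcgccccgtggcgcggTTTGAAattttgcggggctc
PLK1 (chr16:23678639-23678888, plus strand): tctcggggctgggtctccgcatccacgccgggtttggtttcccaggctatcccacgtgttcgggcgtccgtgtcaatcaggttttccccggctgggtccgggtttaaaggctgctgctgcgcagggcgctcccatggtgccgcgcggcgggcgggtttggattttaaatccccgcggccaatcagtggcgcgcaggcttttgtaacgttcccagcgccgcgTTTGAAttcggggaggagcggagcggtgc
CDC20 (chr1:43358731-43358980, plus strand): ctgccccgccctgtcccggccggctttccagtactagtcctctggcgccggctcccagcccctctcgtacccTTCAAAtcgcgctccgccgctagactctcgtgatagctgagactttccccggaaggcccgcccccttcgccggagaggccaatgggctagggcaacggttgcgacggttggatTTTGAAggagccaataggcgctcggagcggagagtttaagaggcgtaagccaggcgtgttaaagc
Counted from the start of the gene, the core begins at -20 in PRC1 and at -29 in PLK1. CDC20 has 2 matches, at -178 and -65, the first on the opposite strand. In windows of 300 bases, from 250 before to 50 after the start, TTTGAA occurred on either strand in 21 of the 32 listed genes with a RefSeq entry (65.6%) and in 15.4% of all 27305 promoters. A match is a description of the letters and not evidence of a bound factor. For comparison, a kappa B form of NF-kB sites, GGG and CC with 5 bases of any kind between them, on either strand, was found in 19 of 21 promoters of the NF-kB list (90.5%) and 9 of 14 of the cytokine list (64.3%), beside 58% of all promoters.

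Genes of the G1/S transition and of DNA replication moved less uniformly: 13 of 35 fell and 5 rose, 51.4% called against 40.7% of all genes, with a median of -0.13. CCNA2, the cyclin A gene, went from 140.3 and 136 CPM to 81.98 and 83.03 CPM (-0.74, SE 0.056, adjusted p 3.01e-15), and the replication licensing factor gene CDT1 from 122 and 112 CPM to 67.7 and 71.1 CPM (-0.76, SE 0.062, adjusted p 4.86e-14). MCM5 (-0.71) and MCM7 (-0.45), subunits of the replicative helicase, fell too. CDK6, a kinase of the G1 phase, rose from 113 and 122 CPM to 196 and 192 CPM (0.72, SE 0.06, adjusted p 9.7e-14). The other increases were the helicase subunits MCM6 (0.35) and MCM3 (0.21) and the cyclins CCNE2 (1.09) and CCND1 (0.13). CDK6 was at 102 and 121 CPM in scramble and 124 and 106 CPM with shRNA 2, close to vector, and was higher with shRNA 1 than in either (0.80 and 0.76, adjusted p 9.9e-15 and 4.05e-14). CCNE2 lost its call without replicate 1 of vector (adjusted p 0.0761). Compared with scramble the list lay the other way, with 20 higher, 1 lower (CCND1, -0.78) and a median of 0.42. Of 33 DNA repair genes 13 fell and 2, ATR (0.58) and XRCC5 (0.14), rose against vector (median -0.19), a called share of 45.5% near the 40.7% of all genes. Against scramble 15 were higher and 1, XRCC1, lower (-0.22), with a median of 0.32 and 48.5% called, beside 33.2% of all genes. The decrease with the smallest adjusted p was that of PRKDC, the catalytic subunit of DNA-dependent protein kinase, from 376 and 391 CPM to 297 and 298 CPM (-0.37). XRCC5 lost its call without replicate 1 of vector or replicate 2 of vector (adjusted p 0.0651 to 0.0735). CDK6 (adjusted p 0.115), PRKDC (0.307), ATR (0.126), CCNE2 (0.056) and XRCC5 (0.212) lost the call in the fit to all 12 libraries.

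Enzymes of nucleotide synthesis had 9 of 25 lower and 3 higher (48% called, against 40.7% of all genes), with a median of -0.13. TK1, the S-phase thymidine kinase, fell from 116 and 110.3 CPM to 51.3 and 50.4 CPM (-1.15, SE 0.063, adjusted p 5.23e-20), as did the thymidylate synthase gene TYMS (-0.86) and the mitochondrial folate enzyme genes MTHFD2 (-0.74) and SHMT2 (-0.45). DUT (0.36), IMPDH2 (0.18) and CTPS1 (0.30) rose. CTPS1 lost its call without replicate 1 of vector or replicate 1 of shRNA 1 (adjusted p 0.108 to 0.198). Of 14 histone genes tested, 5 rose and 6 fell (78.6% called). Those that rose were HIST1H2BK (1.19), HIST2H2BE (1.36), HIST1H1C (0.48), HIST1H2AC (0.74) and HIST1H2BD (0.44). Those that fell were H1F0 (-0.47), H1FX (-0.22), H2AFX (-0.56), H2AFZ (-0.32), H2AFY (-0.28) and H3F3B (-0.10). HIST1H2BK went from 17.01 and 18.5 CPM to 40.04 and 41.1 CPM and was at 43.9 and 40.03 CPM in scramble, where the difference from shRNA 1 was not called (-0.05). Clustered histone messages mostly lack a poly(A) tail and resemble each other, so their counts depend on the mRNA library kit and on how shared reads were treated, which is not given in the sources used here. CTPS1 (adjusted p 0.167) and IMPDH2 (0.343) did not pass in the fit to all 12 libraries. CTPS1 (adjusted p 0.116) did not pass under DESeq2.

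Hypoxia-inducible genes, the targets of the HIF transcription factors, fell in 23 of 32, against 21.7% of all genes, and 1, VEGFA, rose; the median was -0.32. NDRG1, a stress-response gene, went from 2518 and 2498 CPM to 1197 and 1200 CPM (-1.07, SE 0.038, adjusted p 3.41e-27). The glucose transporter gene SLC2A1 went from 468 and 455 CPM to 240 and 268 CPM (-0.86, SE 0.047, adjusted p 6.4e-20), SLC2A3 from 1065 and 1063 CPM to 823 and 798 CPM (-0.39), and BNIP3, a mitophagy receptor gene, from 308 and 302 CPM to 188 and 183 CPM (-0.72, SE 0.047, adjusted p 3.07e-17). VEGFA, the angiogenic growth factor gene, rose from 263 and 262 CPM to 459 and 453 CPM (0.80, SE 0.042, adjusted p 2.61e-20). Scramble, at 458 and 453 CPM, lay beside shRNA 1 and was not called different from it (adjusted p 0.985). For NDRG1 and BNIP3 the shRNA 1 libraries lay between vector and scramble. NDRG1 was at 882 and 885 CPM and BNIP3 at 111 and 102 CPM in scramble, and 19 of the 32 members were higher with shRNA 1 than in scramble, with 2 lower, CA12 (-0.19) and JMJD6 (-0.54), and a median of 0.37. The median of scramble over vector was -0.57.

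HIF binds a hypoxia response element whose core is ACGTG. The 3 promoters shown belong to called hypoxia genes with this core. They too were taken by smallest adjusted p from part of the list only, with some listed genes left out before the choice. Their form is the same as above, with the core in capitals on either strand.
BNIP3 (chr10:131981924-131982173, minus strand): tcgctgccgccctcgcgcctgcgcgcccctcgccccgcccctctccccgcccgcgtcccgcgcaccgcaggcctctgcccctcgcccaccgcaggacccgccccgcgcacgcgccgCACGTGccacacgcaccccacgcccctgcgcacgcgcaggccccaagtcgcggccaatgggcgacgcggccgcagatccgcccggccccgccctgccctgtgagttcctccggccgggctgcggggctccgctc
P4HA1 (chr10:73096867-73097116, minus strand): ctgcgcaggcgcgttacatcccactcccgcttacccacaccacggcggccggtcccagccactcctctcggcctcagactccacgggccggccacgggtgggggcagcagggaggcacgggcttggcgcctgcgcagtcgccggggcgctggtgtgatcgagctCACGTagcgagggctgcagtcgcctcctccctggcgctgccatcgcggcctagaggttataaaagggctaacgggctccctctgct
FAM162A (chr3:122383932-122384181, plus strand): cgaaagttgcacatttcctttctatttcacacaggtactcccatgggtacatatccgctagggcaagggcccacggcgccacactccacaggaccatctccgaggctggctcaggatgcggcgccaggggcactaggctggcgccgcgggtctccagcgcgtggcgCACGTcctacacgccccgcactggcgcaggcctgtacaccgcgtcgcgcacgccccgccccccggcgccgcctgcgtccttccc
In BNIP3 the core overlaps its own reverse complement and begins at -134. The match begins at -86 in P4HA1, a collagen prolyl hydroxylase gene (-0.34), and at -84 in FAM162A (-0.77). In windows of 300 bases the core was found in 15 of the 24 listed genes with a RefSeq entry (62.5%) and in 21.6% of all promoters. P4HA1 went from 747 and 754 CPM in vector to 613 and 572 CPM with shRNA 1, and its scramble libraries were far lower, at 201 and 199 CPM. BNIP3 and FAM162A showed the same order, with FAM162A at 28.5 and 27.5 CPM in vector, 16.2 and 16.7 CPM with shRNA 1 and 9.67 and 11.9 CPM in scramble.

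Glycolysis genes fell in 15 of 21, against 21.7% of all genes, with a median of -0.38, and 1, the lactate dehydrogenase subunit gene LDHB, rose (0.17). HK2, which catalyses the first step of glycolysis, went from 138 and 137 CPM to 62.6 and 59.1 CPM (-1.17, SE 0.057, adjusted p 1.19e-21). ENO1, the enolase gene, went from 5708 and 5613 CPM to 3499 and 3555 CPM (-0.68, SE 0.036, adjusted p 2.81e-20), HK1 from 489.5 and 475 CPM to 284 and 295 CPM (-0.74), ENO2 from 490.4 and 492 CPM to 285 and 279 CPM (-0.80) and TPI1 from 922 and 898 CPM to 576 and 582 CPM (-0.65). No library of shRNA 1 reached a vector library in any of these 5 genes, which were picked by adjusted p. Both shRNA 1 libraries lay below both vector libraries in 35% of all genes. Scramble lay lower for ENO1, at 2617 and 2517 CPM, near shRNA 1 for HK2, at 60.6 and 62.05 CPM, and higher for HK1, at 372 and 352 CPM. In all, 15 members were higher with shRNA 1 than in scramble and 1, HK1, was lower (-0.32), with a median of 0.34, and scramble over vector had a median of -0.69. LDHB (adjusted p 0.308) lost the call in the fit to all 12 libraries.

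Serine synthesis genes and targets of ATF4, the transcription factor of the amino acid response, fell in 19 of 30, against 21.7% of all genes, with a median of -0.34. STC2, a secreted glycoprotein gene, went from 362 and 359.5 CPM to 164 and 158 CPM (-1.16, SE 0.047, adjusted p 7.57e-25). PHGDH, the first enzyme of serine synthesis, went from 302 and 302 CPM to 164 and 171 CPM (-0.85, SE 0.047, adjusted p 7.56e-20), and the alanyl-tRNA synthetase gene AARS from 652 and 651 CPM to 444 and 441 CPM (-0.56). DDIT3, the gene of the stress factor CHOP, fell too (-0.65). The 2 increases were the transcription factor genes CEBPB (0.22) and CEBPG (0.15). STC2 was lower than in scramble (-0.64), whereas PHGDH (0.16) and AARS (0.16) were higher; in all 16 members were higher than in scramble and 7 lower. CEBPG lost its call without replicate 1 of vector, replicate 2 of vector, replicate 1 of shRNA 1 or replicate 2 of shRNA 1 (adjusted p 0.0581 to 0.159). CEBPB (adjusted p 0.136) and CEBPG (0.248) did not pass in the fit to all 12 libraries. CEBPG (adjusted p 0.133) did not pass under DESeq2.

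NRF2 target genes of the antioxidant response fell in 13 of 23, against 21.7% of all genes, with a median of -0.23. NQO1, a quinone reductase gene, went from 129 and 124 CPM to 61.7 and 62.7 CPM (-1.03, SE 0.058, adjusted p 2.11e-19), and SLC7A11, the cystine transporter gene, from 43.7 and 50.3 CPM to 30.1 and 28.97 CPM (-0.67, SE 0.087, adjusted p 1.36e-08). TXNRD1 (-0.35), TKT (-0.33) and HMOX1 (-0.56) fell as well, and FTH1 (0.14) and ME1 (0.24) rose. The difference of NQO1 from scramble was not called (-0.011, adjusted p 0.919), and the list had 3 members higher (TALDO1, AKR1C3 and KEAP1) and 3 lower (TKT, FTH1 and GSR) than in scramble. That share, 26.1%, lay below the 33.2% of all genes called in the same comparison. ME1 lost its call without replicate 2 of vector (adjusted p 0.0567). ER chaperone and unfolded protein response genes had 11 of 23 lower and 5 higher (69.6% called, against 40.7% of all genes), with a median of -0.073. The chaperones HSP90B1, from 1851 and 1867 CPM to 1465 and 1432 CPM (-0.36), and HSPA5, from 954 and 941 CPM to 767 and 769 CPM (-0.30), fell. ERP44 (0.34), CRELD2 (0.37), DNAJB9 (0.26), DNAJB11 (0.26) and ERN1 (0.36) rose. Here shRNA 1 lay below scramble too, with 15 lower, 1 higher (PDIA6) and a median of -0.27. Cytosolic heat shock genes gave 5 higher and 4 lower of 21, 42.9% called and so near the share over all genes. The 5 higher genes were the constitutive chaperone gene HSPA8, from 296 and 302 CPM to 484 and 493 CPM (0.71), HSPH1 (0.69), DNAJA1 (0.44), DNAJB4 (0.41) and HSPA1B (0.35). The 4 lower genes were HSPB1 (-0.44), CACYBP (-0.29), DNAJB1 (-0.20) and HSF1 (-0.12). DNAJB1 lost its call without replicate 1 of vector, replicate 1 of shRNA 1 or replicate 2 of shRNA 1 (adjusted p 0.0515 to 0.159). SLC7A11 (adjusted p 0.186) and TKT (0.104), and also CACYBP, CRELD2, DNAJB1, DNAJB4, DNAJB9, FTH1, HSPB1 and ME1 (0.0535 to 0.558), lost the call in the fit to all 12 libraries. DNAJB1 (adjusted p 0.0889) did not pass under DESeq2.

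Ribosomal protein genes rose in 43 of 46, against 19% of all genes, and 0 fell. The median was 0.35, and the changes ran from 0.010 to 0.60. RPS12 went from 749 and 738 CPM to 1175 and 1085 CPM (0.60, SE 0.041, adjusted p 7.59e-17), RPL6 from 508 and 499 CPM to 766 and 745 CPM (0.59, SE 0.041, adjusted p 4.21e-16), RPL4 from 1477 and 1450 CPM to 2036 and 2045 CPM (0.48), RPL5 from 1224 and 1212 CPM to 1816 and 1653 CPM (0.51) and RPS6 from 1232 and 1180 CPM to 1812 and 1656 CPM (0.52). All genes with a ribosomal protein symbol, listed or not, took 4.59% and 4.45% of the counts in vector and 6.08% and 5.61% with shRNA 1. In scramble the share was 5.46% and 5.31%, between those of vector and shRNA 1, and 26 of the 46 were higher with shRNA 1 than in scramble and 0 lower (median 0.13). Many ribosomal protein genes have near-identical processed pseudogenes, so these counts depend on how the authors treated reads with several matches. Genes of ribosome biogenesis and MYC targets had 6 of 27 higher and 4 lower, with a median of 0.085; the 37% called lay below the 40.7% of all genes. RRP12, a ribosome assembly factor gene, went from 54.3 and 51.4 CPM to 79.5 and 79.9 CPM (0.59), and the 4 lower were DKC1 (-0.29), FBL (-0.16), GNL3 (-0.15) and PES1 (-0.16). FBL lost its call without replicate 1 of vector, replicate 1 of shRNA 1 or replicate 2 of shRNA 1 (adjusted p 0.0782 to 0.22), and GNL3 lost its call without replicate 1 of vector, replicate 2 of vector or replicate 1 of shRNA 1 (adjusted p 0.0664 to 0.51). DKC1 (adjusted p 0.0681), FBL (0.59) and GNL3 (0.331) did not pass in the fit to all 12 libraries. FBL (adjusted p 0.101) and GNL3 (0.136) did not pass under DESeq2.

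**Figure D4:**
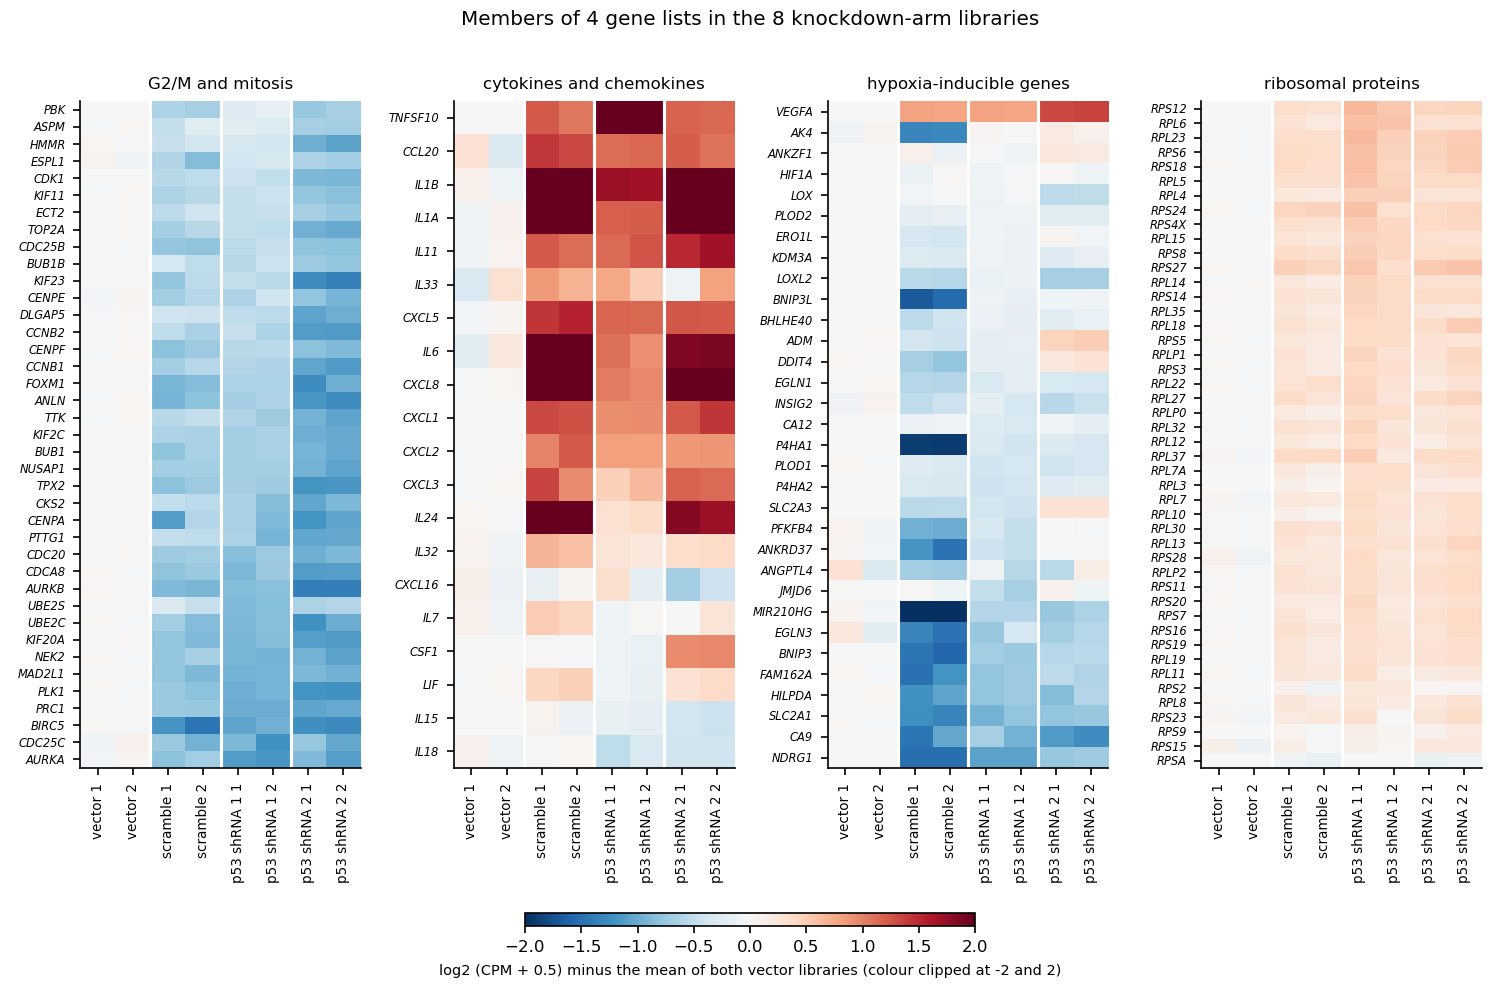
Members of the G2/M, cytokine, hypoxia and ribosomal protein lists (rows) in the 8 knockdown-arm libraries (columns), as log2 (CPM + 0.5) minus the mean of the 2 vector libraries, clipped at -2 and 2. The G2/M rows are blue and the ribosomal rows mostly red in all columns but vector. IL1B and CXCL8 are paler with shRNA 1 than in scramble, TNFSF10 is darker, and NDRG1 and P4HA1 are darkest blue in scramble.

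Genes of the extracellular matrix changed in both directions. FN1, the gene of fibronectin, was at 9538 and 9766 CPM in vector and 20890 and 21270 CPM with shRNA 1 (1.13, SE 0.034, adjusted p 8.63e-30). COL3A1, a fibrillar collagen chain, went from 1451 and 1478 CPM to 3506 and 3629 CPM (1.28, SE 0.037, adjusted p 1.47e-30), and LUM, the proteoglycan lumican, from 212 and 214 CPM to 486 and 483 CPM (1.19, SE 0.043, adjusted p 7.51e-27). MFAP2, a microfibril protein gene, rose by 0.86 on the log2 scale. THBS1, the gene of thrombospondin 1, went down from 748 and 768 CPM to 464 and 464 CPM (-0.71, SE 0.041, adjusted p 3.35e-19), and the basement membrane gene NID1 fell too (-0.37). COL3A1 was higher with shRNA 1 than in scramble (2182 and 2168 CPM; 0.71) and than with shRNA 2 (2250 and 2230 CPM; 0.67). LUM was lower than in both, at 581 and 564 CPM in scramble and 1020 and 993 CPM with shRNA 2. Over the list of matrix glycoproteins and proteoglycans, 14 of 25 rose and 9 fell (92% called, against 40.7% of all genes), with a median of 0.14. Of 20 collagen chains 7 rose and 6 fell (65% called), with a median of -0.026, or 0.0252 without replicate 1 of shRNA 1. Besides COL3A1 the increases included COL16A1 (0.81) and COL4A5 (0.65), and the decreases COL13A1, a membrane collagen (49.9 and 51.5 CPM to 25.5 and 26.6 CPM, -0.96), COL8A1 (-0.47) and COL4A2 (-0.28). COL4A2 (adjusted p 0.0622) lost the call in the fit to all 12 libraries.

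Fibroblast markers, a list in which DCN, COL3A1 and LUM also stand, gave 8 of 13 higher and 3 lower (84.6% called, against 40.7% of all genes), with a median of 0.38. PDGFRB, a growth factor receptor gene, went from 116 and 122 CPM to 178 and 185 CPM (0.60). THY1, a surface glycoprotein gene, went the other way, from 121 and 121 CPM to 53.5 and 50.6 CPM (-1.21, SE 0.064, adjusted p 1.94e-20), and TWIST1 (-0.42) and COL6A3 (-0.10) fell. The summed level of the list was 26860 and 26810 CPM in vector and 29230 and 30680 CPM with shRNA 1. The collagen I genes COL1A1 (-0.05) and COL1A2 (0.08) were not called. Against scramble 4 were higher (COL3A1, COL5A1, COL6A3 and PDGFRA) and 3 lower (LUM, PDGFRB and THY1), with a median of -0.041. Epithelial genes, summed, were at 1019 and 978.6 CPM in vector and 863 and 886 CPM with shRNA 1. Of their 8 tested members KRT8 rose (0.25), and EZR (-0.36), KRT18 (-0.24), KRT81 (-0.26) and MUC1 (-0.54) fell. Whether a change in the make-up of the cultures bears on these values was not tested. COL6A3 lost its call without replicate 1 of vector, replicate 2 of vector or replicate 1 of shRNA 1 (adjusted p 0.092 to 0.193), and MUC1 lost its call without replicate 2 of vector, replicate 1 of shRNA 1 or replicate 2 of shRNA 1 (adjusted p 0.0558 to 0.122). COL6A3 (adjusted p 0.622), KRT18 (0.293), KRT8 (0.316) and KRT81 (0.331) did not pass in the fit to all 12 libraries. MUC1 (adjusted p 0.129) did not pass under DESeq2.

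Matrix proteases and their inhibitors had 12 of 28 higher and 7 lower (67.9% called, against 40.7% of all genes), with a median of 0.13. MMP13, a collagenase gene, went from 34.95 and 31.2 CPM to 101 and 96.8 CPM (1.59, SE 0.069, adjusted p 1.17e-23), and MMP2, a gelatinase gene, from 2307 and 2308 CPM to 3255 and 3450 CPM (0.54, SE 0.036, adjusted p 7.98e-17). ADAM12, a membrane metalloprotease gene, rose from 72.9 and 73.5 CPM to 141 and 135 CPM (0.91, SE 0.055, adjusted p 1.77e-18); it stood at 79.8 and 80.8 CPM in scramble and at 53.1 and 51.7 CPM with shRNA 2. ADAMTS1 fell from 182 and 185 CPM to 107 and 109.6 CPM (-0.77, SE 0.051, adjusted p 5.93e-17) with no call against scramble (0.08). Integrin and laminin genes gave 8 higher and 8 lower of 24 (66.7% called). ITGA11, a collagen receptor subunit gene, went from 97.1 and 102 CPM to 192 and 208 CPM (0.9976), ITGA2 from 19.96 and 20.9 CPM to 37.5 and 37.5 CPM (0.87), and ITGA6, a laminin receptor subunit gene, fell from 281 and 283 CPM to 205 and 206 CPM (-0.46). MMP13, MMP1 (1.32) and BIRC3 were the 3 genes called among 15 tested in the 11q22 region, where the matrix metalloprotease genes are clustered, and 0 fell there. That share, 20%, was below the 40.7% of all genes.

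Targets of YAP and TAZ, the effectors of the Hippo pathway, fell in 14 of 28 and rose in 4 (64.3% called, against 40.7% of all genes), with a median of -0.13. CYR61, a matricellular gene and standard target, went from 1494 and 1478 CPM to 638 and 638 CPM (-1.22, SE 0.039, adjusted p 8.35e-29). CTGF, another, went from 128 and 133 CPM to 74.3 and 65.9 CPM (-0.89, SE 0.06, adjusted p 7.24e-17), and IGFBP3 from 349 and 358 CPM to 146 and 158 CPM (-1.22, SE 0.048, adjusted p 2.21e-25). AJUBA (-0.68) and FOSL1 (-0.61) fell too. The 4 that rose were NT5E (0.58), WWTR1, the gene of TAZ itself (0.66), F3 (0.30) and LATS1 (0.40). CYR61 was lower with shRNA 1 than in scramble (1006 and 1002 CPM; -0.65) and than with shRNA 2 (758 and 782 CPM; -0.27), and CTGF was lower than in scramble (-0.50). Of AP-1 and immediate early genes 10 of 24 fell and 6 rose (66.7% called, median -0.16): FOSL2 went from 501 and 517 CPM to 295 and 308 CPM (-0.76), whereas KLF10 (0.54) and JUNB (0.28) rose. JUNB (adjusted p 0.142) lost the call in the fit to all 12 libraries.

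TGF-beta ligands, receptors and targets rose in 12 of 28 and fell in 4 (57.1% called, against 40.7% of all genes), with a median of 0.072. TGFBR2, the type II receptor gene, went from 162 and 149.5 CPM to 295 and 304 CPM (0.95, SE 0.048, adjusted p 4.66e-21) and was higher than in scramble, at 175 and 184 CPM (0.74). LTBP3, which binds latent TGF-beta, rose by 0.78 on the log2 scale. The 4 that fell included THBS1 (-0.71), CTGF (-0.89) and FST, the gene of the activin inhibitor follistatin (-0.83). Feedback genes of the MAPK pathway gave 6 higher and 3 lower of 20, 45% called and so near the 40.7% of all genes, with a median of 0.093. PHLDA1 went from 604 and 631 CPM to 940.3 and 929.7 CPM (0.60), and DUSP6, the phosphatase of ERK, from 35.1 and 32.7 CPM to 50.4 and 49.5 CPM (0.56), while EPHA2 (-0.35), DUSP14 (-0.46) and DUSP1 (-0.28) fell. Scramble was above shRNA 1 for DUSP6 (72.6 and 72.7 CPM; -0.54), and 12 of the 20 were lower with shRNA 1 than in scramble. Receptor tyrosine kinase genes fell in 9 of 20 and rose in 3, PDGFRB (0.60), IGF1R (0.50) and PDGFRA (0.38), with a median of -0.21 and 60% called. AXL went from 1066 and 1046 CPM to 732 and 794 CPM (-0.47) and EPHB4 from 112 and 112 CPM to 67.02 and 75.6 CPM (-0.66). DUSP14 lost its call without replicate 2 of shRNA 1 (adjusted p 0.114), and DUSP1 lost its call without replicate 2 of vector or replicate 1 of shRNA 1 (adjusted p 0.149 to 0.204). DUSP1 (adjusted p 0.197), DUSP14 (0.0829) and EPHA2 (0.0642) did not pass in the fit to all 12 libraries. DUSP1 (adjusted p 0.129) did not pass under DESeq2.

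Genes of the RNA interference machinery, on which hairpins depend, had 4 of 13 higher and 0 lower, with a median of 0.088. The 30.8% called lay below the 40.7% of all genes. DICER1, the nuclease that cuts hairpins, went from 24.7 and 28.8 CPM to 46.1 and 48.1 CPM (0.80, SE 0.088, adjusted p 2.03e-10), and DGCR8, the partner of Drosha, from 11.7 and 11.9 CPM to 18.99 and 21.2 CPM (0.76). TNRC6B (0.30) and the Argonaute gene AGO2 (0.17) were the others. TNRC6B lost its call without replicate 1 of vector or replicate 2 of shRNA 1 (adjusted p 0.0834 to 0.127). AGO2 lost its call without replicate 1 of vector, replicate 1 of shRNA 1 or replicate 2 of shRNA 1 (adjusted p 0.0827 to 0.187). In scramble DICER1 was at 36.00 and 42.96 CPM and DGCR8 at 12.7 and 14.9 CPM. Apoptosis regulators gave 5 higher and 5 lower of 22, 45.5% called and so near the share over all genes. BCL2L11 (0.92) and BMF (0.78), which encode proapoptotic BH3-only proteins, rose, as did MCL1 (0.34), CYCS (0.30) and XIAP (0.23), while BIK (-1.43, with 9 counts in the shRNA 1 libraries), BCL2L1 (-0.49), BAK1 (-0.40) and BAD (-0.32) fell. TXNIP, a glucose-responsive arrestin gene, rose from 544 and 557 CPM to 945 and 896 CPM (0.74, SE 0.04, adjusted p 5.23e-20), above scramble (0.58), and ARRDC3 rose by 0.61 on the log2 scale. The imprinted gene PEG10 rose from 185 and 196 CPM to 254 and 257 CPM (0.42), and stood lower in scramble than in either, at 115 and 127 CPM (1.07 for shRNA 1 over scramble). AGO2 (adjusted p 0.6), BAD (0.185), PEG10 (0.116) and TNRC6B (0.467) lost the call in the fit to all 12 libraries. AGO2 (adjusted p 0.131) and TNRC6B (0.0579) did not pass under DESeq2.

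**Figure D5:**
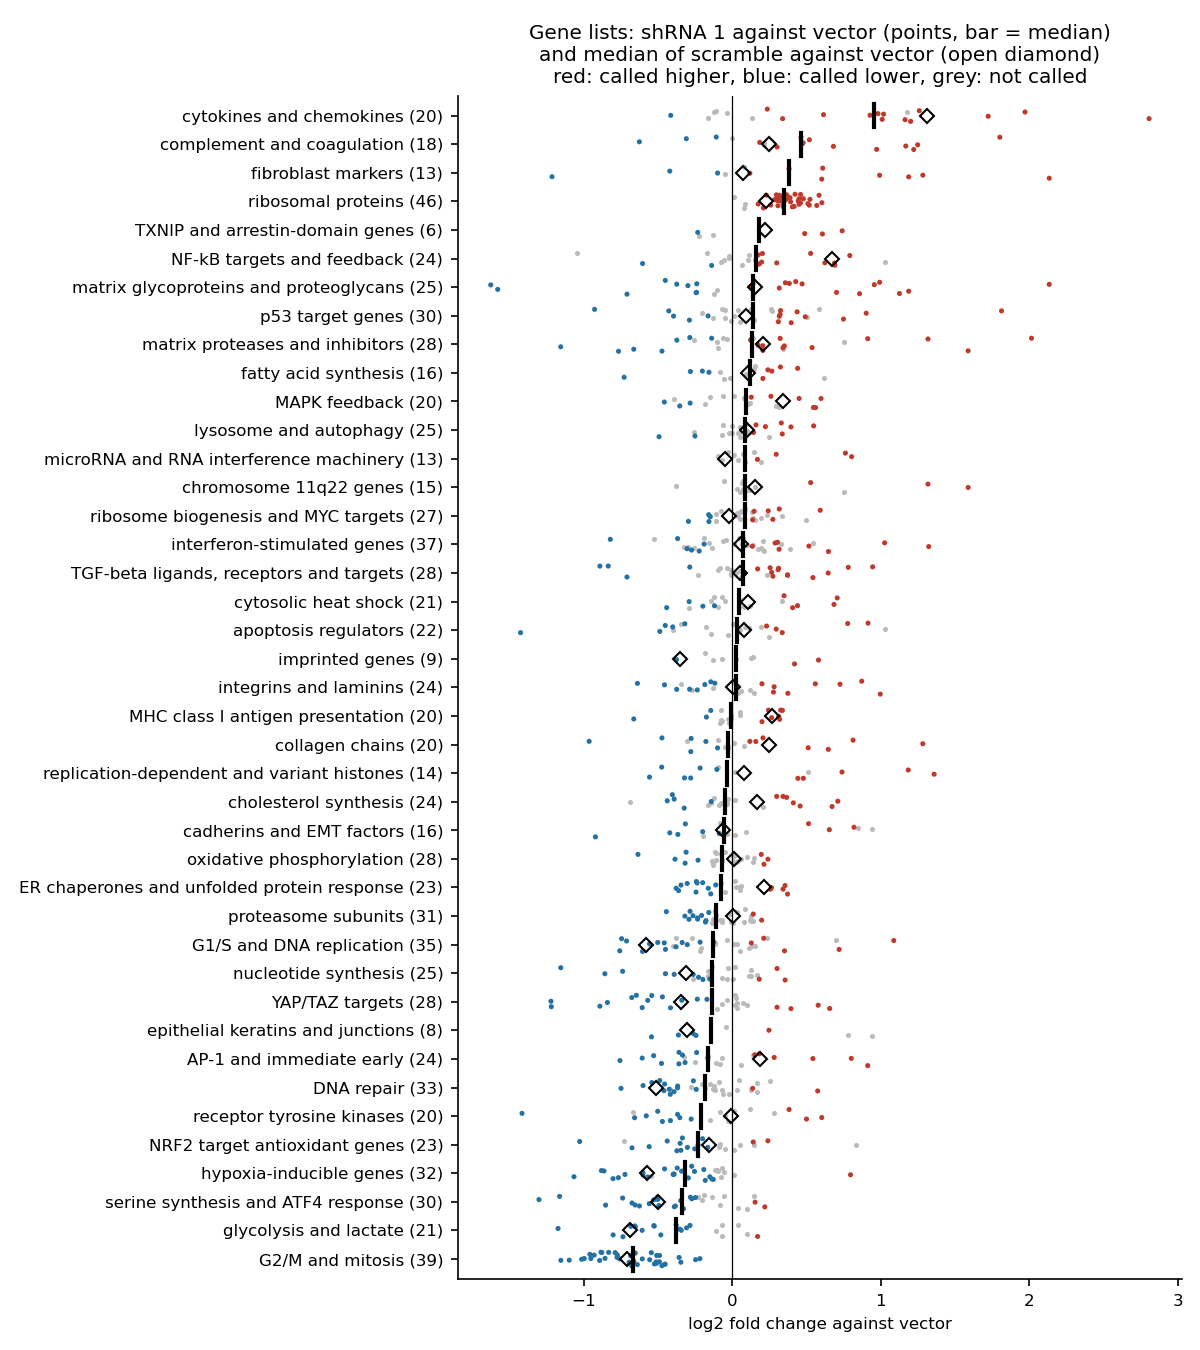
Log2 fold change of shRNA 1 over vector for the tested members of the 41 lists with at least 6 of them (points; red called higher, blue called lower, grey not called), with the list median (bar) and the median of scramble over vector (open diamond). The number tested stands in brackets. The 2 medians lie close together for the G2/M list, and the scramble median lies farther from 0 for the cytokine, NF-kB, hypoxia and glycolysis lists.

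Further lists are given by the share of members called, to be read against 40.7% of all genes. For cholesterol synthesis 50% of 24 members were called (median -0.048), for fatty acid synthesis 56.2% of 16 (0.12), for proteasome subunits 41.9% of 31 (-0.11), for oxidative phosphorylation 28.6% of 28 (-0.069), and for lysosome and autophagy genes 36% of 25 (0.089). Single members still moved clearly. SDHA, the flavoprotein subunit of succinate dehydrogenase, fell from 133 and 133 CPM to 85.2 and 86.2 CPM (-0.63, SE 0.053, adjusted p 1.14e-13) and was lower than in scramble, at 147 and 147 CPM (-0.78), and with shRNA 2, at 129 and 132 CPM (-0.61). ACSL3, a fatty acyl-CoA ligase gene, fell from 123 and 126 CPM to 77.4 and 73.2 CPM (-0.73, SE 0.056, adjusted p 6.23e-15), with 134 and 137 CPM in scramble. MSMO1, a sterol synthesis enzyme gene, rose from 75.5 and 79.8 CPM to 125 and 123 CPM (0.67, SE 0.056, adjusted p 8.69e-14), with no call against scramble (0.0042). The desmosomal gene DSP (-0.37) and N-cadherin, CDH2 (-0.32), fell and CDH11 rose (0.51) in the list of cadherins and EMT factors, in which 56.2% of 16 members were called (median -0.058, or 0.0171 without replicate 1 of shRNA 1). DSP (adjusted p 0.158) did not pass in the fit to all 12 libraries.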

How the data were processed

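The series holds bulk mRNA libraries of LMSU cells, of which 4 of 12 are compared here. The deposited table gives raw counts of reads per gene, with no normalization, for 25435 symbols. Per the submitters' processing notes the authors used bcl2fastq, STAR 2.5 and hg19. Not given in the sources used here are the counting tool, its strand setting, its handling of reads with several matches and the gene annotation, so overlapping and antisense genes may share reads.

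Groups were taken from the labels. edgeR 4.0.16 in R 4.3.3 was run on the counts of the 8 knockdown-arm libraries with TMM scaling, filterByExpr at a minimum count of 10 and 1 coefficient per group, which left 12980 genes. The quasi-likelihood test was two-sided, and the Benjamini-Hochberg adjustment ran over all 12980. A standard error is the log2 fold change divided by the square root of its F statistic. Each group had 2 libraries, between 9738094 and 16823246 counts deep. The alternatives were DESeq2 1.42.0, limma-voom 3.58.1, other scalings, filters, thresholds and library sets, a replicate block, and leaving out each library. The procedure was tested on simulated data.

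The comparison and the gene lists were chosen with earlier results of these data known. Of 1108 list entries (45 lists) 1106 were found in the table, 2 of them through another symbol, and 965 passed the filter, 924 distinct genes. The named genes are CDKN1A, MDM2 and DCN, the 14 called genes with the largest change in each direction whose libraries do not overlap and whose mean reaches 5 CPM in the higher group (clone, antisense, pseudogene, readthrough and small RNA names left out), and from each list up to 5 called members with the smallest adjusted p and up to 3 against the rest. Further members were named after their values were seen, to complete small counts or to show levels in another group. Lists are described by counts and medians, with no test. Promoters come from RefSeq, GRCh38.p14, matched by symbol, and were not placed on hg19. Some genes that the naming rule selects are not reported here.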

Additional observations from a re-analysis of the deposited data

How the results depend on the processing

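The number of genes called, 5283, was within 1.5 times under DESeq2 (3638), limma-voom (5261), other scalings (5286 and 5304), other filters on low counts (5159 and 5156), the 4 libraries alone (5299), thinned counts (4819), and an adjusted p below 0.01 (3873). DESeq2 called 1631 genes higher against 2466. A fit to all 12 libraries called 1742, 772 higher and 970 lower, and a test against a fold of 1.2 called 1781, 795 higher and 986 lower. Leaving out 1 library gave 4144 to 5357 genes, 1914 to 2561 higher and 2218 to 2845 lower. The libraries share only a replicate number: the correlation of their deviations between vector and shRNA 1 was -0.015, and a fit with the replicate number as a block called 5103 genes, 2368 higher and 2735 lower. Single genes were followed under these alternatives only where the naming rule selects them. Of their log2 fold changes 0 reversed, 4993 stayed on their side of the threshold and 326 lost their call. Of the lost calls 98 were in the test against a fold of 1.2 and 92 in the fit to all 12 libraries. The calls of genes named outside that rule were not followed, so no statement on their stability is made. The share of higher calls ranged from 43.4% to 49.2% beside 46.7%. Of 738 medians of the 41 lists, 70 moved by more than the spread between libraries, in 28 lists, and 13 took the opposite sign, in 6 lists whose median lay within 0.058 of 0. In counts simulated for shRNA 1 against vector with 12839 genes tested, 72.5% of genes changed 1.5-fold and 90.6% of those changed 2-fold were called. SLC14A1, DMBT1, RTL1, APLN, FAM166A, TSPAN10, BIK and FGF1 had fewer than 40 counts in the lower group.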

Other observations

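Some genes set the shRNA 1 libraries apart from all 3 other groups of the arm. By a rule chosen after the data were seen, this held for 1234 of the 12980 genes tested. They were called against vector, scramble and shRNA 2 in 1 direction, with both shRNA 1 libraries beyond all 6 others. The 1234 genes are 23.4% of the 5283 genes called against vector. The same 2 shRNA 1 libraries enter all 3 comparisons. The rule was not applied to vector, scramble or shRNA 2, so whether such a number is particular to shRNA 1 was not tested. Among the 1234, 497 were higher and 737 lower. ARPC1A, a subunit gene of the ARP2/3 actin-nucleating complex, was at 20.3 and 19.6 CPM with shRNA 1, 45.3 and 48.8 CPM in vector, 56.04 and 55.8 CPM in scramble and 47.04 and 50.3 CPM with shRNA 2. GXYLT1, a glycosyltransferase gene, was at 32.8 and 32.4 CPM with shRNA 1, 14.6 and 15.9 CPM in vector, 16.6 and 16.8 CPM in scramble and 15.00 and 13.8 CPM with shRNA 2. Both genes were picked from those with the largest differences from all 3 other groups, which lay near each other.

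PBXIP1, which encodes a PBX-interacting protein, was at 19.4 and 21.9 CPM with shRNA 1 and 52.8 and 47.6 CPM in vector (-1.28 on the log2 scale), and TMEM101 at 10.9 and 11.1 CPM and 31.4 and 27.7 CPM (-1.42). CTH, the cystathionine gamma-lyase gene of cysteine synthesis, was at 7.13 and 8.03 CPM and 16.8 and 20.2 CPM (-1.30). FGF1, a fibroblast growth factor gene, was at 0.687 and 1.32 CPM and 3.10 and 5.67 CPM (-2.18), and TMTC4 at 12.9 and 12.4 CPM and 6.05 and 6.61 CPM (0.99). COL13A1 belongs to the set as well, with 25.5 and 26.6 CPM beside 77.99 and 78.1 CPM in scramble and 73.9 and 74.8 CPM with shRNA 2.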
